A study of Mus musculus with 2 samples.

Results

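The cytosolic ribosomal protein genes encode the protein part of the ribosome, the particle that translates mRNA in the cytoplasm. They were taken as the mouse protein-coding genes of the GENCODE vM21 annotation whose symbol is Rpl or Rps followed by a digit, or Rplp0, Rplp1, Rplp2 or Rpsa, leaving out the Rps6k kinases and pseudogenes. The rule gave 86 of 21938 protein-coding genes, and it used no measured value. By name, 46 of them encode core proteins of the large subunit, 31 encode core proteins of the small subunit, and 9 are paralogs or genes with a similar name.

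Ribosomal proteins are made in nearly equal amounts and assemble with ribosomal RNA in the nucleolus, so their genes are usually transcribed at high and similar levels in all dividing cells. Many of their mRNAs begin with a run of pyrimidines, the TOP motif, through which nutrient signaling controls their translation. Loss of 1 copy of several of these genes causes Diamond-Blackfan anemia, a failure of red cell production, which makes the family of interest in hematopoietic progenitors. Myb is a transcription factor that early hematopoietic cells need to proliferate, and it binds short DNA sites built around the bases AAC.

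Binding of Myb to DNA was measured by ChIP-Seq in WT mice, in bone marrow cells negative for lineage markers (Lin–). Lin– cells are what remains when mature blood cells are depleted with antibodies, so the fraction is a mixture rich in stem and progenitor cells. Both groups came from this cell fraction, stated to be above 80% pure, and the labels name no treatment. The Myb group was precipitated with an antibody against Myb and the IgG group with normal rabbit IgG, with 1 library per group. In the study's methods WT stands for Ep300 fl/fl mice without Cre, male or female, on a C57BL/6 background, which were injected with poly(I:C) when young like the other genotypes. The labels say only WT, and neither source says how many mice gave these libraries, or their sex, age or injections. A peak cannot be assigned to any cell type within the mixture, and no marker of lineage was measured in these data.

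The deposited list held 25793 peaks of the Myb library called against IgG. A gene was counted as having a promoter peak when the summit of a peak lay within 3 kb of any annotated start of its transcripts. Fold enrichment is the Myb pileup at the summit over the local IgG background, with 1 added to each, as the authors computed it. The pileup was taken as the number of Myb reads times a scale of 0.7695, so a fold is not reads divided by background. With 1 library there was no spread between replicates, so no difference was tested. Every interval below is a 95% interval that leaves out variation between mice and libraries. Shares carry exact Clopper-Pearson intervals and medians carry order-statistic intervals. Both treat the genes or peaks of a list as independent draws, and genes are not replicates, so overlap of such intervals is descriptive. Read numbers carry exact Poisson intervals for counting error only, and folds of single genes carry intervals derived from those.

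Nearly every ribosomal protein gene had a Myb promoter peak. A promoter peak was present at 82 of the 86 genes, or 95.3% (88.5% to 98.7%), while 39.9% of all protein-coding genes had one. These genes held 147 promoter peaks, 1 of which counted for 2 of the genes. All 46 large-subunit genes had a peak (100%, interval from 92.3%), as did 30 of the 31 small-subunit genes (96.8%, 83.3% to 99.9%). The paralogs and genes with a similar name had a peak less often by count, at 6 of 9 (66.7%, 29.9% to 92.5%). The peaks themselves were of ordinary strength, as described further on.

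Sequences around peak summits are shown first, because they hold the bases under the strongest signal. The Myb motif was searched as CAACGG or CAACTG or TAACGG or TAACTG on either strand within 50 bp of the summit. It was present at the strongest summit of 9 ribosomal protein genes, and those of Rps15, Rps7, Rps23 and Rpl5 are given below to show how differently the motif was placed. Rps15 is among the genes with the strongest peaks and Rpl5 is a Diamond-Blackfan anemia gene, whereas Rps7 and Rps23 were chosen after their values were seen. Each line reads 5′ to 3′ on the strand of the gene in the GRCm38 (mm10) reference, with the motif in capitals. The Rps15 stretch (chr10:80292425-80292452, plus strand) ends just before its transcript start, since no untranslated sequence is shown. The Rps7 window (chr12:28636052-28636152, minus strand) is upstream of the start. The Rps23 window (chr13:90926210-90926310, plus strand) and the Rpl5 window (chr5:107901270-107901370, plus strand) are downstream of it.
Rps15: gctcgcgaTAACTGcgcaagcgcagccc
Rps7: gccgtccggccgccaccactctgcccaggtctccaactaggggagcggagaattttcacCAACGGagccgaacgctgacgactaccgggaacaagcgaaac
Rps23: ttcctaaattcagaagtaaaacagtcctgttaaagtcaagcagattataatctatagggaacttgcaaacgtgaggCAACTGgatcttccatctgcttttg
Rpl5: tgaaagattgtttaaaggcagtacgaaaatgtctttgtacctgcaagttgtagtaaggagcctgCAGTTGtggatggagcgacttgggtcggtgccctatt

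Most strong summits held no Myb motif, and 4 of these are shown for contrast. The Rpl37a window (chr1:72711165-72711265, plus strand), the Rpl4 window (chr9:64173237-64173337, plus strand) and the Rps19 window (chr7:24884194-24884294, plus strand) lie upstream of their genes. The Rpl41 window (chr10:128547845-128547945, minus strand) lies beyond the 3′ end of its gene, next to Zc3h10. Capitals mark CCGGAA, a form of the site of the ETS family of transcription factors, searched on either strand. Rpl41 and Rps19 held it and Rpl37a and Rpl4 lacked it. Shorter or other forms of the ETS site were not searched, so a window without capitals can still hold one.
Rpl37a: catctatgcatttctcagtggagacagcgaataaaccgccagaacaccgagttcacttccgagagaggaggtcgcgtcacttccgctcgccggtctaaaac
Rpl4: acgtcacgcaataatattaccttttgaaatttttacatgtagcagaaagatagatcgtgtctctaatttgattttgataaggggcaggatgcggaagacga
Rps19: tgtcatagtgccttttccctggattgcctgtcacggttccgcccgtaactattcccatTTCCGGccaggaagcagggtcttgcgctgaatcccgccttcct
Rpl41: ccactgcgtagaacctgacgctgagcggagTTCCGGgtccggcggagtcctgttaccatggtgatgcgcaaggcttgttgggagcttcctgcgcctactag

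The start of the mRNA is the other sequence that marks this family. The 30 bases from 20 before to 10 after the start of the first-numbered transcript of each gene are shown for Rpl37a (chr1:72711270-72711299, plus strand), Rpl4 (chr9:64173355-64173384, plus strand), Rps15a (chr7:118115668-118115697, minus strand), Rps19 (chr7:24884616-24884645, plus strand) and Rps16 (chr7:28350632-28350661, plus strand). Capitals mark the pyrimidine run at or near the start. Rps19 and Rps15a have other annotated starts upstream of the one shown, and their strongest summits lay nearest to one of those. Rps16 is included because it had such a run and no Myb promoter peak. Its run ends just before the annotated start, whereas the other runs shown span the start.
Rpl37a: catgcgcattgcgTCCCTTCCTCTTCggac
Rpl4: gtacaagtgacaagTCTTTCCTTTTCCTgt
Rps15a: cctgtcacgtactgCCTCTTCTCCCgaaag
Rps19: cgggaaaccccgtcgTTCCCTTTCCCCTgg
Rps16: aattcacacgTCCCCTCTCaggcttcgacg

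**Figure D1:**
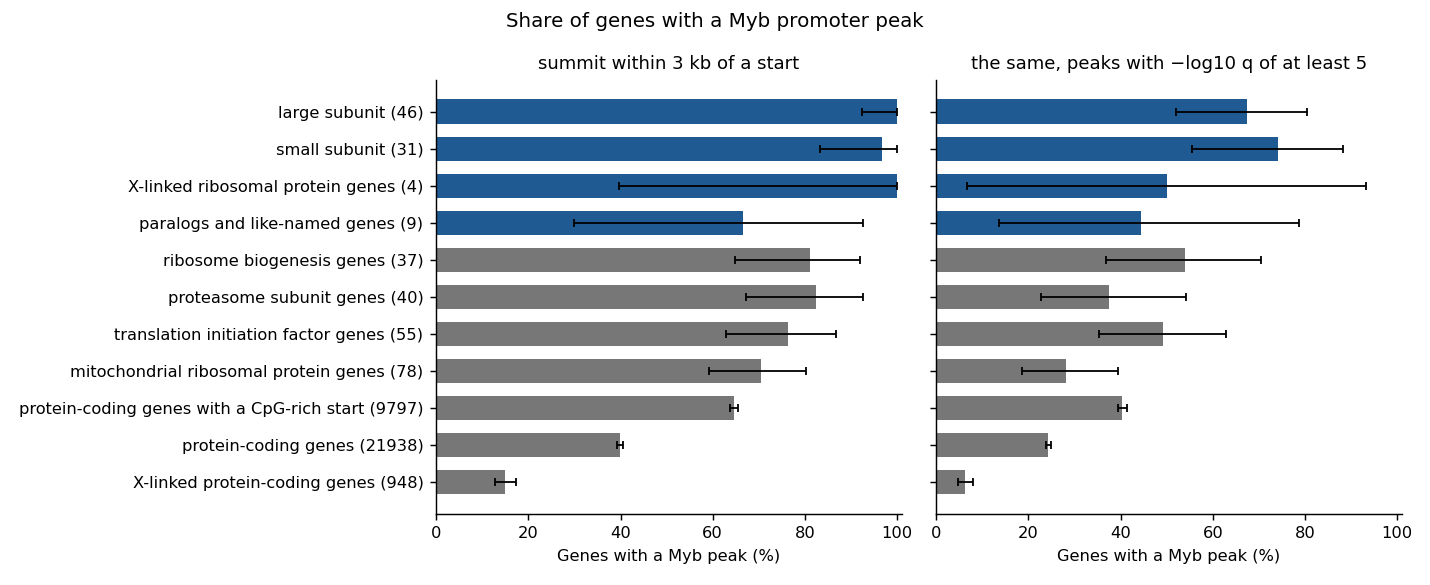
Share of genes with a Myb promoter peak in percent, for all peaks (left) and for strict peaks, those whose −log10 q-value reached 5 (right), with the number of genes of each list in parentheses. Bars give the share and lines the exact 95% interval. Ribosomal protein lists are blue and comparison lists are gray. On the left, both subunit bars stand above every gray bar, and on the right they stand at 67.4% and 74.2% against 24.3% of all protein-coding genes.

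The high share was also seen with stricter definitions of a peak, shown in the plot of shares by gene list. When only strict peaks counted, those whose −log10 q-value reached 5, 58 of 86 ribosomal protein genes had one (67.4%, 56.5% to 77.2%), against 24.3% of protein-coding genes. When the summit had to lie within 250 bp of a start, 73 of 86 had one (84.9%, 75.5% to 91.7%), against 25.4% of protein-coding genes. Ribosomal protein genes had more annotated starts than most genes, with a median of 6 against 3, which gives a summit more chances to fall near one. With only the start of the first-numbered transcript, an alternative chosen after seeing the data, 81 of 86 had a promoter peak (94.2%) against 36.1% of protein-coding genes.

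Most ribosomal protein genes start in DNA rich in CpG, and such starts carried Myb peaks often. A start was called CpG-rich when the kilobase around it had at least 50% GC and an observed-to-expected CpG ratio of at least 0.6. Of the ribosomal protein genes, 76 had a CpG-rich start, which is 88.4% of them against 44.7% of protein-coding genes. A promoter peak was found at 74 of these 76 (97.4%, 90.8% to 99.7%), and at 64.6% of all protein-coding genes with a CpG-rich start. Of the 10 ribosomal protein genes without a CpG-rich start, 8 had a peak (80%, 44.4% to 97.5%), against 20% of all such protein-coding genes. Within both classes of promoter the share was higher among ribosomal protein genes. The second class was not matched for CpG, however. Its median observed-to-expected ratio was 0.675 at the ribosomal protein genes and 0.243 over all such protein-coding genes.

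Other families of housekeeping genes stood between ribosomal protein genes and the genome. The mitochondrial ribosomal protein genes (Mrpl and Mrps), which build the separate ribosome of mitochondria, had a promoter peak at 55 of 78 (70.5%, 59.1% to 80.3%). Translation initiation factor genes (Eif), whose products load mRNA onto the small subunit, had one at 42 of 55 (76.4%, 63.0% to 86.8%). Both intervals lie below that of the cytosolic ribosomal protein genes. Proteasome subunit genes, at 33 of 40 (82.5%, 67.2% to 92.7%), and genes for ribosome biogenesis, at 30 of 37 (81.1%, 64.8% to 92.04%), had intervals that overlapped it. For strict peaks the shares were 28.2% (18.6% to 39.5%) for mitochondrial ribosomal protein genes and 37.5% (22.7% to 54.2%) for proteasome genes. Both intervals lie below that of the cytosolic ribosomal protein genes, 56.5% to 77.2%. The strict shares were 49.1% (35.4% to 62.9%) for initiation factor genes and 54.1% (36.9% to 70.5%) for biogenesis genes, with intervals that overlap it.

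Fau and Rack1 encode proteins of the ribosome that the symbol rule leaves out, and both had a promoter peak. Fau, which encodes a small-subunit protein fused to a ubiquitin-like protein, reached 6.68-fold with 26 reads (17.0 to 38.1), 2826 bp downstream. This was the stronger of 2 promoter peaks of Fau, and the other had its summit within 250 bp of a start. Rack1, a scaffold for signaling proteins on the small subunit, reached 3.77-fold with 33 reads (22.7 to 46.3), 77 bp downstream. The folds of these strongest peaks lie within the range of the ribosomal protein genes, and that of the closer Fau peak is not given here.

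Peaks at ribosomal protein genes were about as strong as peaks at other genes. The strongest promoter peak of a ribosomal protein gene had a median fold enrichment of 5.03 (4.69 to 5.83), and the same median over the 8758 protein-coding genes with a promoter peak was 5.25 (5.21 to 5.29), so that the intervals overlap. The values ran from 2.73 to 10.8, while those of all protein-coding genes reached 30.9. Only 11 of the 82 genes were at or above 8-fold, which is 13.4% of them against 16.1% of all genes with a peak. The highest, Rps9, ranked 482 among the 8758.

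The medians of the 2 subunits overlapped. Large-subunit genes had a median of 4.95-fold (4.48 to 6.02) with quartiles of 4.20 and 6.62, and small-subunit genes one of 5.92-fold (4.82 to 7.09) with quartiles of 4.60 and 7.26. The mitochondrial ribosomal protein genes had a lower median, 4.16-fold (3.71 to 4.83), with an interval that just overlaps that of the cytosolic genes. The initiation factor genes were at 5.19-fold and the proteasome genes at 4.47-fold.

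**Figure D2:**
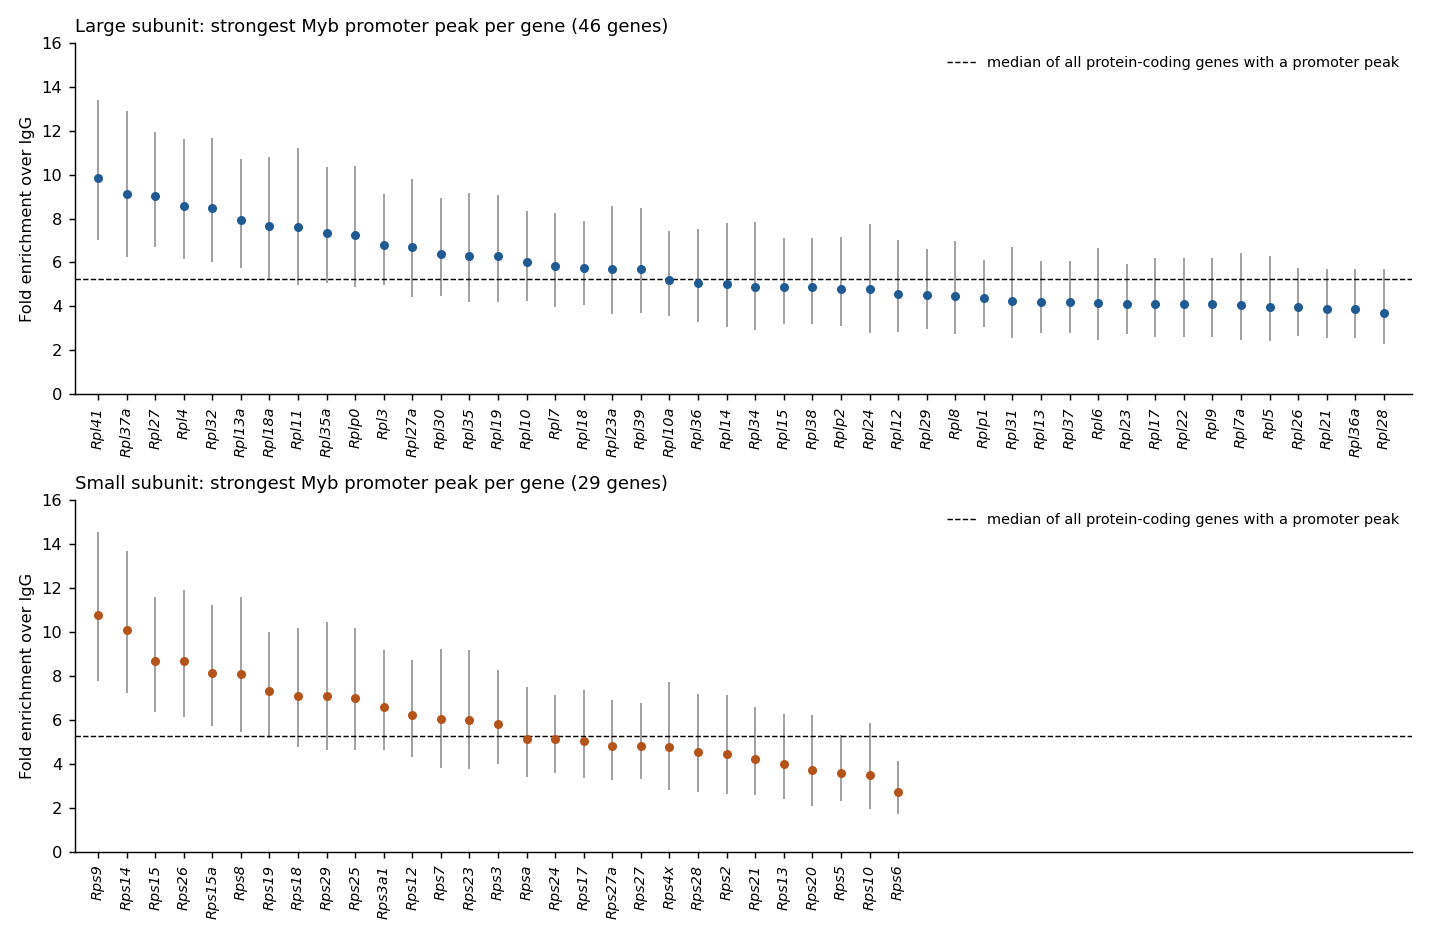
Fold enrichment over IgG of the strongest Myb promoter peak of the core ribosomal protein genes shown, large subunit above and small subunit below, each in descending order. Dots are the deposited values, lines are the 95% interval from Poisson counting of the Myb reads with the background held fixed, and the dashed line is the median of all protein-coding genes with a promoter peak, 5.25. The values fall off smoothly from 10.8 to 2.73 in the small subunit and from 9.82 to 3.71 in the large subunit, and neighboring intervals overlap.

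Few reads stood behind each peak, by the recovered read numbers. The strongest peaks rested on 12 to 47 Myb reads at the summit, with a median of 25 (23 to 27) against 22 over all genes with a peak. The interval of a single fold value is accordingly wide, and the order of the genes in the plot of fold enrichment by gene is not resolved between neighbors. The local IgG background had a median of 2.46 reads (2.22 to 3.0) at ribosomal protein genes and 2.14 (2.13 to 2.14) over all genes with a peak. Backgrounds are on the scale of the pileup, which was taken as 0.7695 times the Myb read number. A background at its lowest possible value, 1.46 reads, was found at 4.88% of the ribosomal protein genes and 8.95% of all genes with a peak. The somewhat higher background lowers a fold value at equal reads, and its part in the fold values was not tested. At the mitochondrial ribosomal protein genes the background was 3.0 reads (2.73 to 3.12) and the median Myb signal 20 reads.

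**Figure D3:**
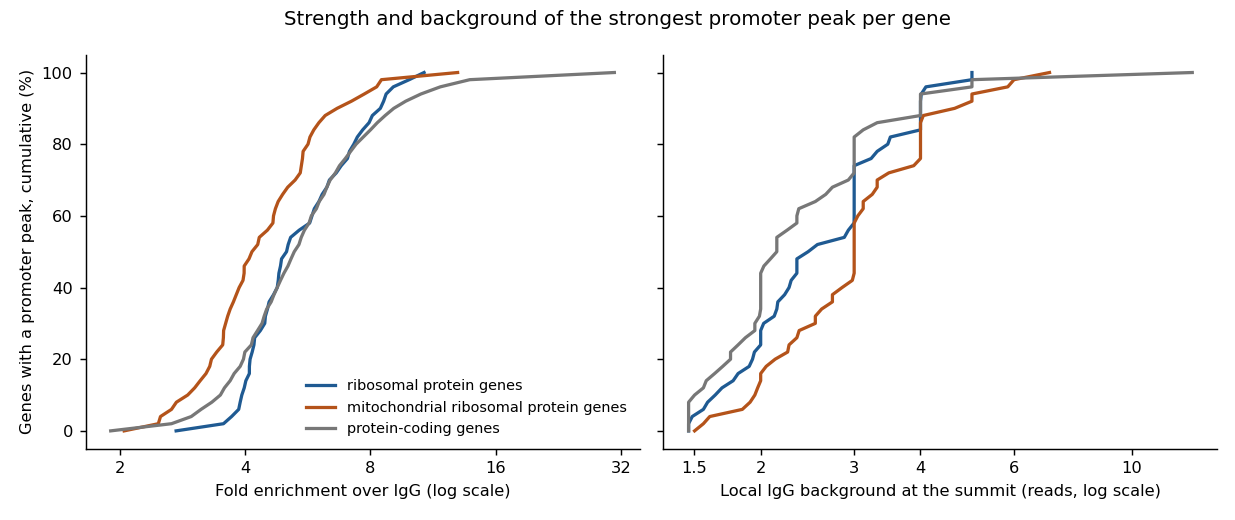
Cumulative share of genes, in percent of those with a promoter peak, by fold enrichment over IgG (left, log scale) and by local IgG background in reads (right, log scale) at the strongest promoter peak. The curve of the cytosolic ribosomal protein genes runs beside that of all protein-coding genes on the left, with medians of 5.03 and 5.25, and to its right in the background plot, with medians of 2.46 and 2.14 reads.

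Among the 10 genes with the strongest peaks, 5 belong to each subunit. Rps9, a small-subunit protein, had the highest fold enrichment, 10.8 (7.79 to 14.5), from 40 reads (28.6 to 54.5) over a background of 1.95, in a peak at chr7:3703283-3704920 with its summit 121 bp downstream of a start in the 5′ UTR. Rps14, the gene whose loss of 1 copy impairs red cell formation in the 5q– syndrome, followed with 10.1-fold (7.23 to 13.7) from 38 reads, 198 bp upstream of a start (summit position −198). The intervals of these genes overlap.

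Rpl41, which encodes a very short basic protein, reached 9.82-fold (7.02 to 13.4) with 37 reads at chr10:128546152-128548213. This peak lay 1207 bp downstream of the nearest Rpl41 start, and the closest start of all was that of Zc3h10. A separate peak with its summit 92 bp from an Rpl41 start had 5.59-fold and 35 reads, and it did hold a Myb motif. For Rpl41 the strongest peak is thus not the one at its own promoter.

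Rpl37a, a large-subunit protein with a zinc finger, had 9.11-fold (6.23 to 12.9) from 29 reads at chr1:72710777-72711511, with the summit 75 bp upstream (position −75). Rpl27, a Diamond-Blackfan anemia gene, had 9.02-fold (6.69 to 11.9) at chr11:101442110-101442591. Its 47 reads (34.5 to 62.5) were the most at any ribosomal protein gene and its −log10 q-value of 22.1 was the highest of them, although its background of 3.12 was above the median. Its summit was 33 bp upstream of the start (position −33).

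Rps15, needed for the export of the unfinished small subunit from the nucleus, had 8.68-fold (6.36 to 11.6) from 43 reads at chr10:80292144-80292896, with the summit 22 bp downstream of a start in the 5′ UTR. It was the only 1 of these 10 genes with a Myb motif within 50 bp of the strongest summit. Rps26, a small-subunit protein at the channel where mRNA leaves and a Diamond-Blackfan anemia gene, had 8.67-fold (6.13 to 11.9) from 35 reads at chr10:128626468-128627151, 89 bp from a start.

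Rpl4, which lines part of the tunnel through which the new protein leaves the ribosome, had 8.55-fold (6.14 to 11.6) from 38 reads at chr9:64172205-64174864. This peak was wide, 2660 bp, and also lay within 3 kb of a start of Zwilch. Rpl32, a large-subunit protein, had 8.49-fold (6.04 to 11.6) from 36 reads at chr6:115808355-115809474, 157 bp upstream of its start (position −157). Rps15a, a small-subunit protein, had 8.13-fold (5.72 to 11.2) from 34 reads at chr7:118115584-118116488, 14 bp from a start. In 9 of these 10 genes, all but Rpl41, the strongest summit lay within 250 bp of a start of the gene.

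All 18 Diamond-Blackfan anemia genes on the list had a promoter peak (100%, interval from 81.5%), and 14 of them had a strict one (77.8%). These shares lie near those of the whole family, 95.3% and 67.4%, against 39.9% and 24.3% of protein-coding genes. Their median fold was 5.43 (4.54 to 7.31). Rps19, the gene most often mutated in the disease, had 7.31-fold (5.20 to 10.03) from 36 reads (25.2 to 49.8) at chr7:24883749-24884814, 127 bp upstream of a start (position −127). Rpl11, which with Rpl5 and 5S ribosomal RNA binds Mdm2 and so links the ribosome to p53, had 7.59-fold (4.96 to 11.2) from 23 reads (14.6 to 34.5) at chr4:136052822-136053708 and 4 promoter peaks in all. Rpl5 had 3.99-fold (2.41 to 6.29) from 16 reads (9.15 to 26.0) at chr5:107901190-107901725, in an intron 446 bp downstream of a start. A second Rpl5 peak 37 bp from its start had more reads, 25, over a higher background of 5.0, which gave 3.37-fold. The interval of Rpl5 overlapped those of Rps19 and Rpl11.

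The stalk proteins recruit translation factors to the large subunit. Rplp0 had 7.26-fold, Rplp1 4.40-fold and Rplp2 4.81-fold at their strongest promoter peaks, and all 3 had a strict peak and a summit within 250 bp of a start. At the low end, chosen after the values were seen, Rps6 had 2.73-fold from 20 reads over a background of 5.0, the lowest fold of all, although its summit was 65 bp from a start. Rps6 is the small-subunit protein that S6 kinases phosphorylate.

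All 4 ribosomal protein genes on the X chromosome had a promoter peak, while 15% of the 948 X-linked protein-coding genes had one. Rpl10, which joins the large subunit at a late step of its assembly, had 6.02-fold (4.24 to 8.33) from 34 reads, 7 bp from a start. Rpl39, a short protein of the exit tunnel, had 5.70-fold (3.69 to 8.47) from 22 reads, 108 bp downstream. Rps4x, a small-subunit protein, had 4.78-fold (2.80 to 7.74) from 14 reads in an intron 957 bp downstream, over a background at its lowest value. Rpl36a, a large-subunit protein, had 3.89-fold (2.57 to 5.70) from 24 reads, 159 bp downstream of a start and within 3 kb of a start of Btk. With 4 genes the exact interval of the share reaches down to 39.8%, and 2 of the 4 had a strict peak.

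Rps16 was the only core gene without a promoter peak. This small-subunit gene lies at chr7:28350652-28353155, has a CpG-rich start with the pyrimidine run shown above just before it, and its nearest summit was 11006 bp away. Within 250 bp of its start, 96.96% of the 75-base sequences occurred once in the reference, and whether read placement bears on the missing peak was not tested. Of the genes with a peak, Rpl3l and Rps10 had their nearest summits farthest from a start, at 1974 bp and 1968 bp, with 3.92-fold and 3.49-fold. All other genes with a promoter peak had a summit within 1 kb of a start, which makes 80 of 86. Strongest summits nearer the 3 kb limit, such as that of Rpl12 at 2754 bp with 4.55-fold, belonged to genes with a closer summit as well.

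The paralogs and genes with a similar name divided into those with and those without a peak. Those with a peak were Rpl7l1, a nucleolar protein (4.69-fold, 25 reads), Rps27l, a paralog of Rps27 (4.66-fold, 26 reads), Rps19bp1, which binds Rps19 (4.11-fold, 13 reads), and Rpl22l1, a paralog of Rpl22 (3.89-fold, 29 reads). Rpl36al, a near copy of Rpl36a, had 4.47-fold from 13 reads in a peak next to Mgat2, over a background at its lowest value. A peak 31 bp from the start of Rpl36al had a lower fold, 3.89, from more reads, 29, over a higher background of 5.0. Rpl3l, a form of Rpl3 made in heart and skeletal muscle, had 3.92-fold from 14 reads, 1974 bp upstream (position −1974).

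Rpl10l, Rpl39l and Rps27rt had none. Rpl10l and Rpl39l are copies used mainly in the testis, and their nearest summits were 1111496 bp and 213798 bp away. Rps27rt is an intronless copy of Rps27, and its nearest summit was 180552 bp away. For Rps27rt only 60.4% of the 75-base sequences around the start were unique in the reference, the lowest of the 86 genes. Ribosomal protein genes have many processed pseudogenes. Every 75-base sequence around the start was unique at 74 of the 86 genes, and the part of read placement in the peak calls was not tested.

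Peaks at ribosomal protein genes sat close to the transcript start. The median distance of the strongest summit from the nearest start of the gene was 124 bp (90 to 163), against 246 bp (235 to 255) over all protein-coding genes with a promoter peak. Among genes with a CpG-rich start the medians were 136.5 bp (90 to 163) and 218.5 bp (209 to 229). Ribosomal protein genes had more annotated starts, a median of 6 against 3, which shortens the distance to the nearest one. The part of this in the contrast was not tested. The strongest summit was within 250 bp of a start at 59 of the 82 genes. It was upstream of or at the start in 43 and downstream in 39. The median signed distance was −19.5 bp, against −15 bp over all protein-coding genes with a promoter peak. At 76 genes a peak covered a start. By annotation, 28 of the strongest summits were upstream of the gene, 21 in a 5′ UTR, 14 in an intron, 13 in an exon of a noncoding transcript, 1 in another UTR exon and 5 beyond the 3′ end. For covered starts and these locations the shares over all protein-coding genes are not given here. With the start of the first-numbered transcript alone the median distance was 198 bp, and the value of all protein-coding genes at that setting is not given here. The mitochondrial ribosomal protein genes had a median of 103 bp (65 to 170).

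**Figure D4:**
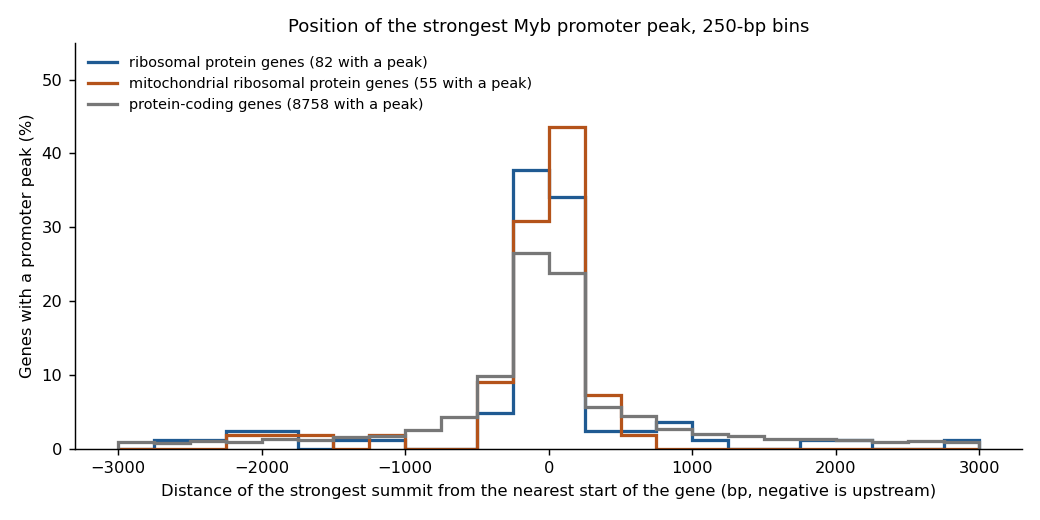
Distance of the strongest promoter summit from the nearest start of its gene in bp (negative is upstream), in bins of 250 bp, as percent of the genes with a promoter peak. Of the cytosolic ribosomal protein genes (blue), 37.8% fall in the bin just upstream of the start and 34.1% in the bin just downstream, against 26.5% and 23.8% of all protein-coding genes (gray).

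Neighboring genes share some of these peaks. At 19 of the 82 genes the strongest peak also lay within 3 kb of a start of another protein-coding gene, and at 10 of them the other gene's start was the nearer one. The same shares over all protein-coding genes are not given here, so neither count is read as particular to this family. Of the 147 peaks, 132 had a ribosomal protein gene as the nearest protein-coding gene, and counting only these left 81 of 86 genes with a promoter peak, against 35.8% of protein-coding genes. Several promoter peaks were present at 42 of the 82 genes with a peak (51.2%), against 44.9% of all protein-coding genes with a peak. There were 25 genes with 2 peaks, 12 with 3, 4 with 4 and 1, Rpl24, with 6. A gene with more annotated starts has a wider window in all, and this family had more starts, as given above.

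The Myb motif was not frequent at these summits. It lay within 50 bp of the summit in 19 of the 147 promoter peaks (12.9%, 7.96% to 19.4%), against a mean of 7.48% in windows of the same size 500 bp to either side. Over all 13250 promoter peaks of protein-coding genes the shares were 14.4% at the summit and 10.2% in the flanks. Among the strongest peaks of the ribosomal protein genes, 9 of 81 held it (11.1%, 5.21% to 20.0%), with a flank mean of 8.64%, against 14.8% of the strongest peaks of all protein-coding genes. A motif match is a description of the letters, and its absence says only that these letters were not in the window.

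Where the motif was present it did not have a fixed place, as the sequences above show. In Rps15 and Rps7 it stood within 250 bp of a start, in peaks of 8.68-fold and 6.06-fold. In Rps23 it lay in a 6.01-fold peak whose summit was 2075 bp downstream of a start. In Rpl5 it lay in the intronic peak of 3.99-fold. In Rpl5 the motif was read from the strand opposite the gene.

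Motifs of other factors were present at these summits in varying shares, with wide intervals. The ETS site form CCGGAA was within 50 bp of the strongest summit in 11 of 81 peaks (13.6%, 6.98% to 23.0%), against 7.23% of the strongest peaks of all protein-coding genes. The GC box GGGCGG, bound by SP factors, was present in 18.5% (10.8% to 28.7%) against 14.2%. The core of the YY1 motif, AANATGG, was present in 8.64% (3.55% to 17.0%) against 5.09%. The CCAAT box of NFY was present in 6.17% (2.03% to 13.8%) against 10.5%, the sequence TATAA in 6.17% against 6.07%, and the E-box CACGTG in 1.23% (0.0313% to 6.69%) against 2.39%. Each interval given here included the value of all genes. These motifs can overlap each other only in part of their letters, and each was searched on both strands.

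The promoters, from 250 bp before to 50 bp after the start of the first-numbered transcript, were searched for the same letters. The ETS site form CCGGAA was present in 46.5% of the 86 ribosomal protein promoters, against 17.8% of all protein-coding promoters and 29.6% of those with a CpG-rich start. The YY1 core was present in 25.6% against 15.9%. The sequence TATAA was present in 29.1%, against 23.2% of all protein-coding promoters and 10.7% of those with a CpG-rich start. The Myb motif was present in 16.3% of ribosomal protein promoters, against 26.6% of all protein-coding promoters, 22.3% of those with a CpG-rich start and 21.8% of mitochondrial ribosomal protein promoters. A run of at least 6 pyrimidines at or near the start, as in the sequences shown above, was present in 44.2% against 24.2%. Runs were counted from 10 bp before the start and had to begin no more than 10 bp after it. Only the start of the first-numbered transcript was searched, so a run at another start of a gene was not counted. These shares therefore do not give the share of genes whose mRNAs carry the TOP motif. Mitochondrial ribosomal protein promoters also had CCGGAA often, in 53.8%, and the pyrimidine run in 25.6%.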

How the data were processed

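ChIP-Seq of Myb and of IgG in WT Lin– bone marrow cells gave 1 library each, grouped by sample title, and 1 peak list was used. Chromatin was sonicated for 14 cycles, 1 μg was precipitated with 1.5 μg of antibody, and adapters were added by Tn5 on the beads, with 12 PCR cycles and single-end sequencing. Per the submitters' processing notes and the study's methods, the authors used Cutadapt 1.15, BWA 0.7.13, Picard, a mapping quality above 30, the mm10 blacklist and MACS2 2.1.1.20160309 against IgG, and kept peaks shared by pseudo-replicates, which are subsets of 1 library. Fold enrichment is a ratio deposited by the authors. The deposited −log10 p-values and −log10 q-values are those of MACS2 for each peak. The deposited score was not used, and the read depth of the libraries is not given in the list. Of the 147 promoter peaks, 10 had a q-value above 0.05.

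Reads at each summit were recovered from fold enrichment and p-value, with a pileup scale of 0.7695 that gave whole reads in 100% of rows (tolerance 0.002 on the −log10 p-value). Simple fractions of this scale fit as well, and the largest was taken. All read numbers, and the intervals of reads and of single folds, rest on that choice. More than 1 read number lay within the tolerance in 1.24% of rows. Summits were linked to every transcript start of GENCODE vM21 protein-coding genes within 3000 bp in GRCm38, and sequences came from the GRCm38 reference. The strongest peak of a gene is that of the highest fold enrichment. Python 3.11.15, pandas 2.3.3, SciPy 1.17.1 and pysam 0.24.0 were used, and the steps were tested on simulated data. No test was run, since each group had 1 library and genes are not replicates. Reads are PCR copies without molecular identifiers, so the intervals of reads and of single folds cover counting error only. Those of shares and medians cover only the spread among the genes or peaks of a list.

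The genes and lists were chosen with earlier results of these data known. Genes were named by a rule: the 10 with the highest fold enrichment, those with no promoter peak, the X-linked genes, the paralogs, Rps19, Rps14, Rpl5 and Rpl11, the stalk genes, and Fau and Rack1. Some items that the rule or a search gave are not reported here. The alternatives were other peak thresholds, windows, start sets, member sets and motif forms.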

Additional observations from a re-analysis of the deposited data

How the results depend on the processing

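No paired analysis was possible because each group had 1 library and the IgG library entered only through peak calling, and for the same reason no replicate could be left out. The number of ribosomal protein genes with a promoter peak was between 58 and 82 under the 10 alternatives tried. It was 80 with a 1 kb window (35.8% of protein-coding genes), 77 with 500 bp (31.8%), and 58 when the −log10 q-value had to reach 5. The median fold enrichment rose from 5.03 to 6.04 with that threshold, which removes weak peaks by construction, and moved by less than its interval in the other 8 alternatives. The median distance of 124 bp became 198 bp with only the first-numbered transcript, which leaves fewer starts, and 89.5 bp with the peak nearest to a start in place of the strongest, both chosen after seeing the data. It moved by less than its interval in 8 others. The motif share of 12.9% became 23.1% in a window of 100 bp and 27.9% with a looser motif, both of which admit more sequence, and stayed within its interval in 10 others. Depth limits what can be said of single genes: with 12 to 47 reads at a summit, folds of genes next to each other in rank could not be separated. A gene without a peak had no call at this depth, which does not show that Myb was absent there. Total depth and variation between mice are unknown.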

Other observations

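Small nucleolar RNAs, which guide the chemical modification of ribosomal RNA, are often cut from introns of ribosomal protein genes. Of the 86 genes, 30 hosted at least 1 annotated small nucleolar RNA (34.9%), with 58 such RNAs in all, against 1.18% of protein-coding genes. None of the 78 mitochondrial ribosomal protein genes did. The Rpl4 gene, with one of the strongest peaks, hosted 5.

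Other mRNAs of the TOP class, outside the ribosome, also had promoter peaks often. Of a list of 10 such genes, 9 had a promoter peak (90%, exact 95% interval 55.5% to 99.7%) and 8 (80%) had one whose −log10 q-value reached 5. Of all protein-coding genes 39.9% had a promoter peak, of those with a CpG-rich start 64.6%, and 24.3% of all had one past that q-value. Their median fold enrichment was 7.28 (5.98 to 9.37), beside 5.03 (4.69 to 5.83) at the ribosomal protein genes. The list is short and was chosen with earlier results of these data known.

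The ribosomal protein genes whose start is not CpG-rich were few, and the median fold of their strongest peaks was not lower. The 8 with a peak had a median of 7.29-fold (3.92 to 10.8), and Rps9, Rpl41, Rps26 and Rpl4, all among the 10 strongest, belong to them.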
